A study of Mus musculus with 2 samples.

Results

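The SoxC genes (Sox4, Sox11 and Sox12) and the SoxD genes (Sox5, Sox6 and Sox13) were taken by name from an mm10 gene annotation, and all 6 were found among its 21938 protein-coding genes. Open chromatin around them was read from DNase-seq, in which the enzyme DNase I cuts DNA left free of nucleosomes. The tissue was hindbrain of healthy B6NCrl mice at postnatal day 0, males and females pooled, in 1 group of 2 biological replicates; the series has no second condition. Both replicates are recorded under 1 donor entry as different tissue samples, and the sources used here do not state how many animals each holds. For each gene, peaks and hotspots of both replicates were taken within 500 bp of any annotated start site, in the gene body, and, as distal, where the nearest protein-coding start site was the gene's own and no start site of any gene lay within 500 bp. A peak is a narrow site of open chromatin, nearly always 150 bp wide, and a hotspot is the broader stretch of raised cutting around it. The peak score is the authors', a whole number whose meaning is not stated, so it ranks peaks within 1 list and measures no amount of accessibility.

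SOX proteins bind DNA through an HMG box, which sits in the minor groove and bends the helix. The SoxC proteins are transcriptional activators carried by neuronal progenitors and newborn neurons, where Sox4 and Sox11 switch on genes of neuronal differentiation such as Tubb3 and Dcx. The SoxD proteins carry no known activation or repression domain of their own; they pair through a coiled coil and work through partners, with Sox9 in cartilage and against SoxE factors in the oligodendrocyte lineage, where Sox5 and Sox6 delay maturation.

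Replicate 1 held 270757 peaks on the main chromosomes and replicate 2 held 171790, and 136714 regions had a peak of each; these are called shared regions. Read depth is unknown, and 2 libraries of 1 group give no contrast to test, so the values of the 6 genes stand beside the same values over all genes, as a description. Of the hindbrain and cerebellum markers, 12 of 12 had promoter peaks in each replicate, as had 6 of 6 immature neuron markers, 6 of 6 markers of astrocytes and radial glia and 4 of 6 of oligodendrocyte precursors. The same was true of 2 of 6 forebrain markers and 0 of 6 liver markers, and of 4 of 6 markers of cartilage, another tissue known for the SoxD genes. Over all protein-coding genes the share was 66.3%, and the lists hold too few genes to read a 4 of 6 against it. Hindbrain is a mixture of cell types, and a strong site in few cells cannot be told apart from a weak one in many.

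The sequence of each gene's highest start site region, by the mean percentile of score over both replicates, is shown first, since the start site scores are described next. That of Sox6 lies in an intron, downstream of a start of non-coding transcripts. Each is the part of the shared region that lies outside every annotated exon, from the RefSeq assembly GRCm38.p6 (mm10), read 5′ to 3′ on the minus strand, on which all 6 genes lie. Capitals mark CCAAT and its reverse complement, and GC boxes (GGGCGG and its reverse complement).
Sox4 promoter (chr13:28953716-28953865): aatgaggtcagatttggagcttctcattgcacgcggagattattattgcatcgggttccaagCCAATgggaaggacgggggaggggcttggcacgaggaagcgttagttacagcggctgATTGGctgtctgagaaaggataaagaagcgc
Sox11 promoter (chr12:27342716-27342885): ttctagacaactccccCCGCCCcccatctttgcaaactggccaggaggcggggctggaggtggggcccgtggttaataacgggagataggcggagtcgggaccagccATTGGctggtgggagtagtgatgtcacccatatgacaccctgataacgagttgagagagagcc
Sox12 promoter (chr2:152398076-152398265): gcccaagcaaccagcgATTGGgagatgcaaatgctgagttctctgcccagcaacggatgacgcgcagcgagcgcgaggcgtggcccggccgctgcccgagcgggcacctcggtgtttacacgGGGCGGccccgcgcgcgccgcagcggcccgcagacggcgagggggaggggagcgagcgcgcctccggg
Sox5 inner start site region (chr6:144209569-144209705): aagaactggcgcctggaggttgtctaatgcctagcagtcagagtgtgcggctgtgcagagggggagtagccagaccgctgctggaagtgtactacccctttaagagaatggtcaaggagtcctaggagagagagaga
Sox6 start site region (chr7:116033016-116033165): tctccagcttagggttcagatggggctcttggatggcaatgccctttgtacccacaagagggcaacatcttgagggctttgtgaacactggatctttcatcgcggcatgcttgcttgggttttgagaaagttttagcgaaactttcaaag
Sox13 promoter (chr1:133424378-133424425): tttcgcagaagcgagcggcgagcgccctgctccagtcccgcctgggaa
The Sox4 stretch held 2 CCAAT boxes, the Sox11 and Sox12 stretches 1 CCAAT box and 1 GC box each, and the 3 SoxD stretches, of which that of Sox13 is only 48 bp long, none of either. GC content was 52.0%, 59.4% and 74.2% in the Sox4, Sox11 and Sox12 stretches, and 54.7%, 48.0% and 68.8% in those of Sox5, Sox6 and Sox13. In the RefSeq promoter window, which runs from 250 bases before to 50 after a start, Sox4 had 4 CCAAT boxes and Sox12 had 3 GC boxes. Of the Sox6 windows, 1 also had 4 CCAAT boxes, at a start 193 kb inside the gene that had no peak in either replicate. Another, at a start 7.75 kb inside with a peak of each replicate, had 4 GC boxes. Of all 32851 windows, 37.4% hold any CCAAT and 35.7% any GC box. Matches are a description of these letters and not of bound factors.

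The promoters of all 6 genes were open in both replicates, as were those of 66.3% of all protein-coding genes, so the count alone does not set them apart. In replicate 1 by itself the share over all genes was 70.8%, and in replicate 2 it was 66.8%. The 3 SoxC promoters had the higher scores. Sox4, a transcriptional activator of neuronal genes, had a best promoter score of 137 in replicate 1 and 133 in replicate 2. Sox11, its close relative in newborn neurons, had 139 and 124. Sox12, the weakest activator of the 3, had 137 and 125. The SoxD promoters lay below all of these in both replicates. Sox6 had 109 and 90, Sox5 had 110 and 76 (from 2 different start groups), and Sox13, a SoxD gene known also from T cell development, had 115 and 66. The Sox6 pair and the Sox5 score of 110 came from start groups whose transcripts are all non-coding. At groups where coding transcripts begin, the highest scores were 73 and 62 at Sox6, and 95 and 76 at Sox5. The 3 SoxC genes were above the SoxD genes in both replicates without overlap, while the order within the SoxD genes was not the same in the 2 replicates: Sox13 was first of them in replicate 1 and last in replicate 2. Within the SoxC genes, too, Sox4 and Sox11 changed places. With 3 genes a side, and genes that are not replicates, no test was made.

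All 3 SoxC genes lay above the median best score of the 14541 genes open in both replicates, and all 3 SoxD genes below it, in each replicate; that median was 129 in replicate 1 and 109 in replicate 2. The percentile among these genes was 69.4 in replicate 1 and 91.4 in replicate 2 for Sox4, 76.1 and 74.0 for Sox11, and 69.4 and 76.1 for Sox12. It was 26.6 and 23.7 for Sox5, 25.9 and 31.9 for Sox6, and 30.7 and 18.5 for Sox13. Against all peaks, 4 of the 6 genes (Sox4, Sox11, Sox12 and Sox6) had their best promoter peak at or above the 90th percentile of each list, as had 46.9% of all genes. For Sox6 this was the peak at a start group of non-coding transcripts. The authors' −log10 q of the promoter hotspot stood at its cap of 100 for all 6 genes in both replicates, as it did for 59.0% of genes, so it does not rank them. The ratio of observed to expected CpG around the 5′ end of the gene record was 0.796, 0.908 and 0.971 at Sox4, Sox11 and Sox12, and 0.771, 0.518 and 0.755 at Sox5, Sox6 and Sox13, against a median of 0.552 over all genes. At Sox5 and Sox6 the best scores came from starts further inside the gene, so the ratio describes another place.

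**Figure D1:**
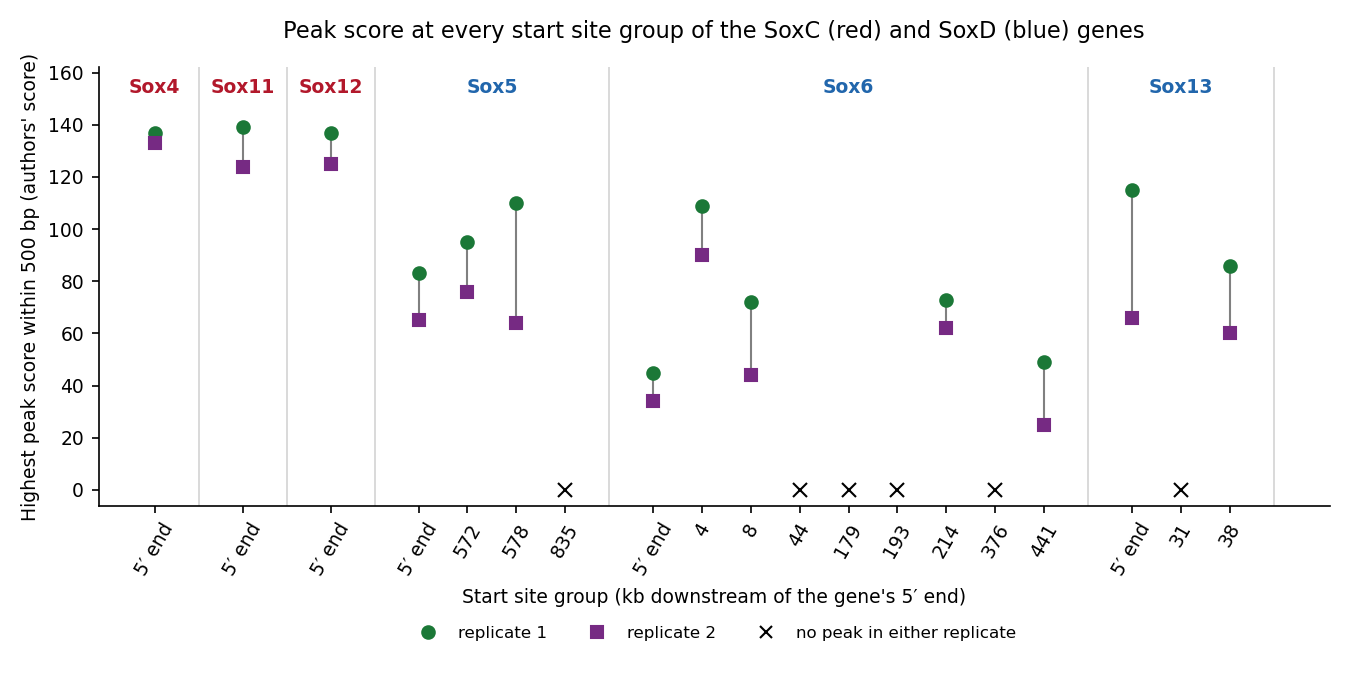
Highest peak score within 500 bp of each start site group of the 6 genes, in replicate 1 (circles) and replicate 2 (squares); groups are in order along each gene, labelled by kb from its 5′ end, and crosses mark groups with no peak. The 3 SoxC genes have 1 group each with scores of 124 to 139, and of the 16 SoxD groups 10 are open in both replicates and 6 in neither.

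The families also differ in how many starts they have. Start sites whose windows overlap were taken as 1 group. Sox4, Sox11 and Sox12 had 1 group each, and 3 of 3 were open in both replicates, which restates that their promoters were open. The SoxD genes had 16 groups, of which 10 were open in both replicates and 6 had no peak and no hotspot in either; none was open in 1 replicate alone. Counted as single start positions, 21 of 34 were open in both replicates, 4 of 4 for SoxC and 17 of 30 (56.7%) for SoxD. Over all start sites of protein-coding genes the share was 53.9%, so the SoxD share lay near it.

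Sox5 spans 953.6 kb at chr6:143828425-144781977 and has 4 start groups. The outermost, at the 5′ end, scored 83 and 65 in replicates 1 and 2, and its 2 transcripts are annotated as non-coding. The group 572 kb inside the gene, where 4 coding transcripts begin, scored 95 and 76. Another group, 578 kb inside, scored 110 and 64, and its 2 transcripts are non-coding. The innermost group, 835 kb inside, where 3 shorter coding transcripts begin, had no peak in either replicate. A short form of Sox5 is known from mouse testis; whether these transcripts encode it was not examined.

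Sox6, which works with Sox5 in cartilage and glia, spans 567.9 kb at chr7:115470872-116038796 and has 9 start groups, of which 5 were open in both replicates. The 3 groups in its first 8 kb were all open. The outermost scored 45 and 34 in replicates 1 and 2, from different peaks. The shared region at this start scored 45 and 22, and the 34 belongs to a peak of replicate 2 alone, at chr7:116039236-116039385. The group shares its window with the divergent gene 1110004F10Rik, whose start lies 0.601 kb away. The best promoter score of that gene was 133 and 128. The group at 4.28 kb, whose 2 transcripts are non-coding, scored 109 and 90, and the group at 7.75 kb, where 2 coding transcripts begin beside the antisense gene Sox6os, scored 72 and 44. Further in, the group at 214 kb, with 1 coding transcript, scored 73 and 62, and the group at 441 kb scored 49 and 25. The groups at 43.7, 179, 193 and 376 kb had no peak in either replicate. Peaks carry no strand, so the openings beside 1110004F10Rik and Sox6os cannot be assigned to 1 gene of each pair.

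Sox13 spans 42.1 kb at chr1:133382303-133424377 and has 3 start groups. The 5′ end, where 1 coding transcript begins, scored 115 and 66 in replicates 1 and 2. The innermost, at 37.9 kb, scored 86 and 60, and its 2 transcripts are non-coding. The middle group at 31.1 kb, where 2 coding transcripts begin, had no peak in either replicate.

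At each of the 3 short SoxC genes the widest hotspot covered the start site and part of the gene. At Sox4 (chr13:28948919-28953713) it was 4097 bp wide in replicate 1 and 2784 bp in replicate 2. At Sox11 (chr12:27334264-27342574) the widths were 3595 and 4474 bp, and at Sox12 (chr2:152393611-152398063) 3680 and 2047 bp. The widest hotspots of the SoxD genes were narrower in both replicates, at 1484 and 1341 bp for Sox5, 1967 and 1775 bp for Sox6, and 1946 and 1687 bp for Sox13. The median hotspot of a library was 232 bp in replicate 1 and 245 bp in replicate 2. That is a median of single hotspots, while each width above is the largest of several. In replicate 1 their number ran from 6 at Sox12 to 157 at Sox5. For Sox5 and Sox6 the widest hotspot also lay at a start site; for Sox13 it lay in intergenic DNA about 68 kb upstream, at chr1:133491955-133493900 in replicate 1.

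All 6 genes had at least 1 shared region in the gene body, as had 66.5% of all genes. Sox5 had 44 shared regions in its body and Sox6 had 43, which put both at a percentile of 99.5 among all genes, where the median gene has 1. Per 100 kb, Sox5 had 4.61 regions and Sox6 had 7.57, which is percentile 36.9 and 64.5 among the 2492 genes of 100 kb or more, whose median is 5.92 per 100 kb and 12 regions in all. Per length, then, neither lay far from other long genes. Sox4, Sox11 and Sox13 had 7 each and Sox12 had 2, which came to 146, 84.2, 16.6 and 44.9 per 100 kb. The 7 regions of the 4.80 kb Sox4 gene put it at a percentile of 99.7 in regions per length, and Sox11 was at 98.3. These 2 percentiles are among genes of all lengths, and short genes were not ranked among genes of like length. With hotspots in place of peaks, Sox4, Sox11, Sox13 and Sox12 had 2, 3, 4 and 1 in the body. In Sox4 the 3 highest body regions away from the start lay in the untranslated part of its single exon, with scores of 104, 83 and 96 in replicate 1 and 79, 74 and 63 in replicate 2, in a stretch that the antisense lincRNA Gm26735 also covers. The highest in Sox12, also untranslated, scored 143 and 125, above the promoter score of 137 in replicate 1 and equal to that of 125 in replicate 2.

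**Figure D2:**
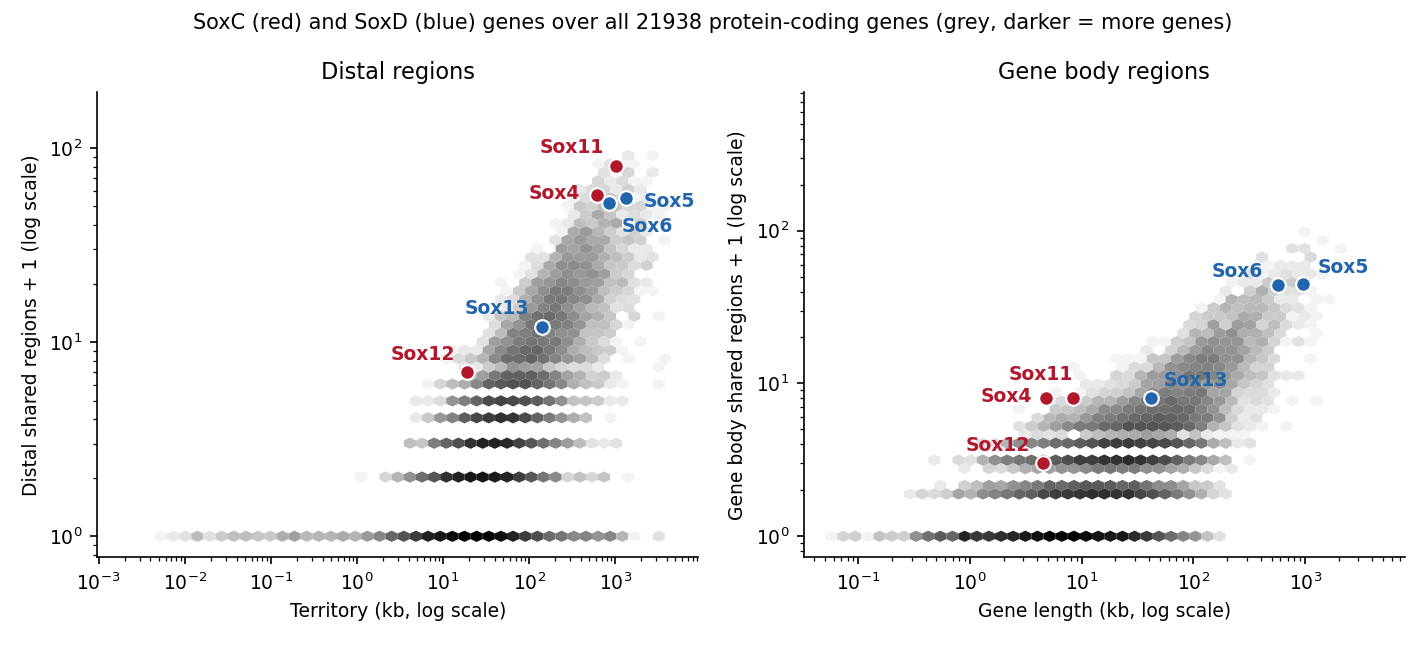
Distal shared regions against territory (left) and gene body shared regions against gene length (right), each count plus 1 and all axes logarithmic, for the SoxC genes (red), the SoxD genes (blue) and all 21938 protein-coding genes (grey). Sox4, Sox11, Sox5 and Sox6 have 56, 80, 54 and 51 distal regions and large territories, and Sox12 has 6 in a territory of 19.2 kb.

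Distal regions were many at 4 of the genes. All 6 genes had at least 1, as had 68.7% of all genes, and together they had 258 of 107430. Sox11 had 80, Sox4 56, Sox5 54, Sox6 51, Sox13 11 and Sox12 6, where the median gene had 2 and the 95th percentile was 21. Sox11, Sox4, Sox5 and Sox6 lay above the 99th percentile of all genes, Sox13 was at 87.1 and Sox12 at 76.7. The 4 genes with many regions also have large territories, the stretch of genome whose nearest protein-coding start is theirs, of 1021 kb for Sox11, 608.5 kb for Sox4, 1350 kb for Sox5 and 843 kb for Sox6. Per 100 kb of territory the order was different. Sox12 came first with 31.2 regions per 100 kb (percentile 99.2 among all genes), followed by Sox4 with 9.20 (81.9), Sox11 with 7.83 (76.6), Sox13 with 7.82 (76.5), Sox6 with 6.05 (67.3) and Sox5 with 4.0 (53.3), against a median of 3.50. Sox12 rests on 6 regions in its territory of 19.2 kb, and the starts of its neighbours, Zcchc3 and Nrsn2, lie 17.0 and 21.4 kb away. With hotspots in place of peaks Sox12 had 2, and without replicate 2 it had 10.

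The counts rest on assigning a region to the nearest protein-coding start, which shows no link between region and gene. When non-coding genes could also claim regions, Sox6 kept 36, Sox5 19, Sox11 16 and Sox4 12, and with regions beyond 100 kb left out they had 31, 25, 20 and 26. Sox6 thus came first under both, where Sox11 is first above, and without replicate 2 Sox5 had 147 and Sox11 131.

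**Figure D3:**
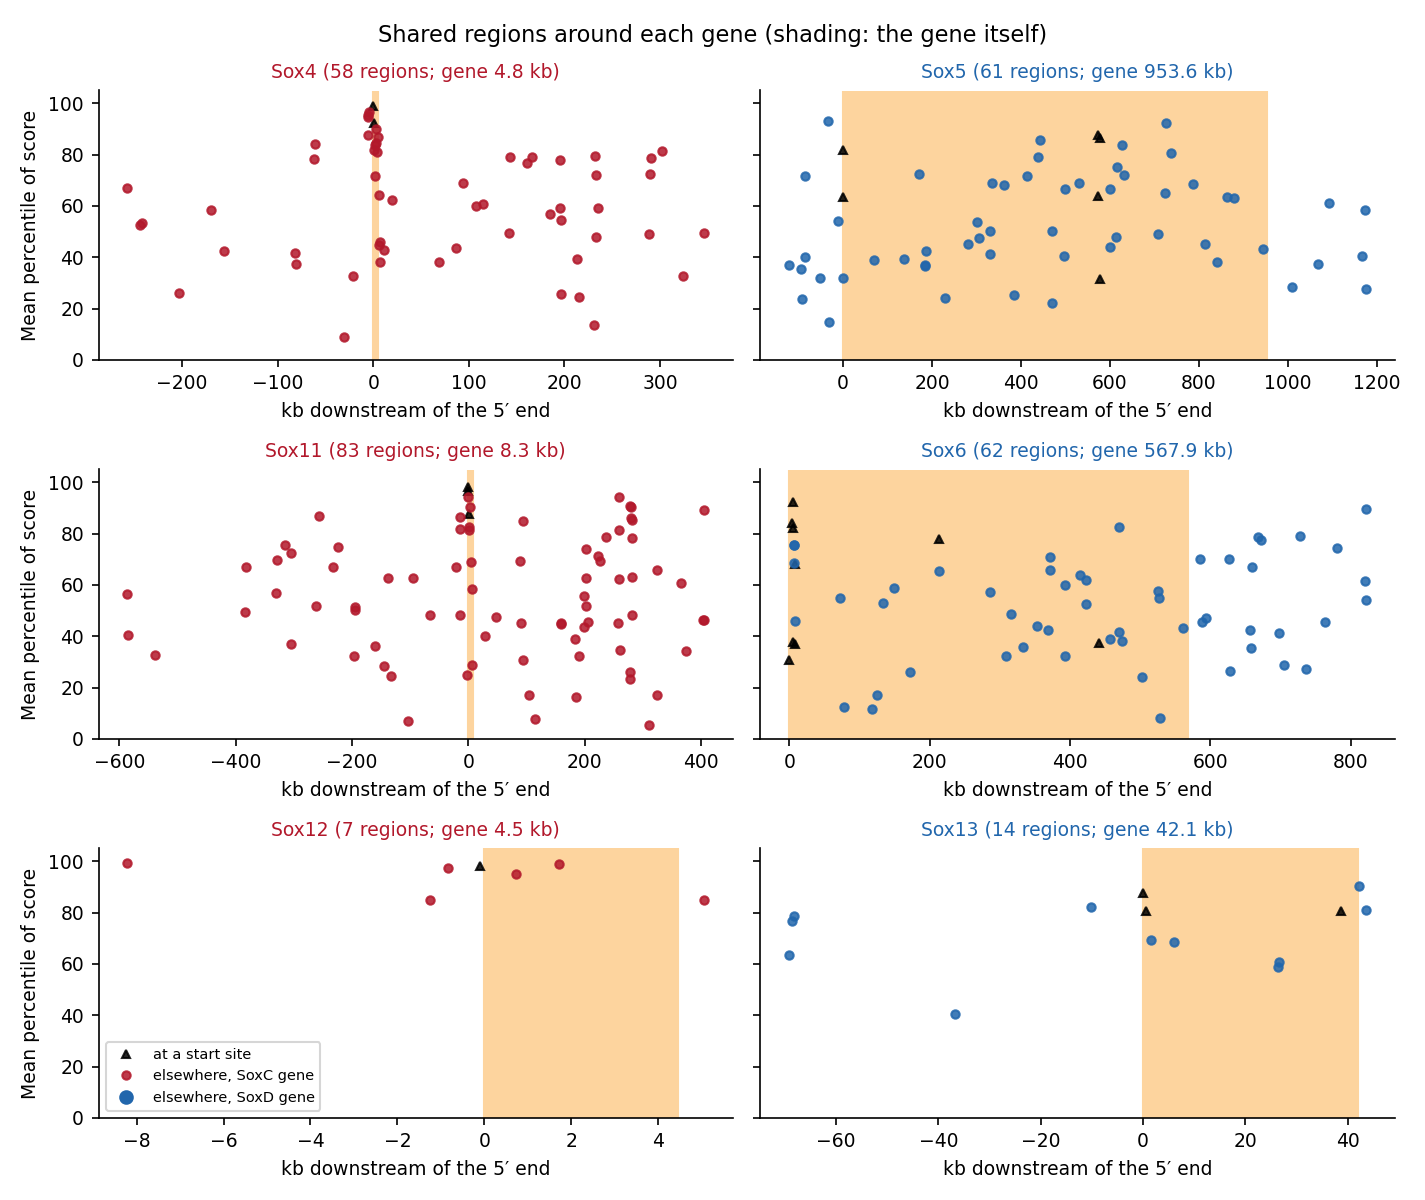
Every shared region of the 6 genes by its distance downstream of the gene's 5′ end (x axis, kb; upstream is negative; each panel has its own scale) and the mean over both replicates of its score percentile (y axis); shading marks the gene, triangles regions at a start site. Sox4 and Sox11 have regions far out on both sides, those of Sox5 lie mostly inside the gene, and Sox6 has none upstream that are assigned to it.

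The regions were laid out differently around the genes. Sox4 had 16 distal regions upstream, 6 inside the gene and 34 downstream, and Sox11 had 30, 6 and 44. Sox5 had 10 upstream, 38 inside and 6 downstream, and Sox6 had 0, 32 and 19; its upstream neighbour 1110004F10Rik begins beside it. Sox13 had 5, 4 and 2, and Sox12 had 3, 2 and 1. So most distal regions of the long SoxD genes lay in their own introns, and most of those of Sox4 and Sox11 lay outside the gene. The median distance to the nearest coding start was 128 kb for Sox4, 205 kb for Sox11, 106 kb for Sox5 and 62.1 kb for Sox6, against 1.48 kb for Sox12, 5.98 kb for Sox13 and 26.1 kb over all distal regions. In all, 139 of the 258 lay more than 100 kb from a coding start, 60 of them at Sox11, 30 at Sox4, 29 at Sox5 and 20 at Sox6.

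Around Sox11, 46 distal regions lay in intergenic DNA and 26 within the lincRNA gene Gm9866. The densest 50 kb held 15 of the 80 regions, between 237 and 282 kb downstream of the 5′ end, inside Gm9866. The highest-scoring distal region of Sox11, chr12:27082796-27082945, is among them, with scores of 115 and 100 in replicates 1 and 2, and the third, chr12:27065076-27065265, with 104 and 84. The farthest region assigned to Sox11 was 586 kb upstream, with scores of 47 and 44. Both flanking genes are distant, Dcdc2c at 1174 kb and Cmpk2 at 869 kb between starts; Cmpk2 had promoter scores of 93 and 70, and Dcdc2c did not have a promoter peak in each replicate.

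Around Sox4, 27 distal regions lay within the non-coding gene 2610307P16Rik downstream, 9 within Gm26735, 4 within A330102I10Rik, 3 within Cdkal1 and 11 in intergenic DNA; a region can lie in more than 1 gene. The densest 50 kb was at the gene itself, with 18 of the 56 regions between 21.1 kb upstream and 20.1 kb downstream of its 5′ end. The 3 highest distal regions lay 4 to 6 kb upstream, with scores of 128, 126 and 121 in replicate 1 and 113, 104 and 98 in replicate 2. All 3 were at or above the 90th percentile of both lists. The farthest was 346 kb downstream, with scores of 40 and 43.

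At Sox12, 4 of the 6 distal regions were at or above the 90th percentile of both lists. The highest, chr2:152406196-152406345, 8.21 kb upstream, had scores of 143 and 131, above those of the Sox12 promoter (137 and 125) in both replicates. It lies almost midway to the start of Zcchc3, 17.0 kb from that of Sox12, so it goes to Sox12 by a small margin. The best promoter scores of Zcchc3 were 132 and 100. The rest of these 4 lay 705, 838 and 1705 bp from the nearest Sox12 start, inside the replicate 1 hotspot that covers the start. Median distal scores of Sox12, 133 and 106 in replicates 1 and 2, were the highest of the 6 genes, against 60 and 40 over all distal regions. They rest on 6 regions at a median of 1.48 kb from a coding start. For the others these medians were 58.5 and 42 at Sox4, 55 and 39 at Sox11, 51 and 33.5 at Sox5, 54 and 32 at Sox6, and 72 and 51 at Sox13. Only Sox12 and Sox13 were above the median of all distal regions in both replicates.

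Among the distal regions of the SoxC genes 10 of 142 (7.04%) were at or above the 90th percentile of both lists, and among those of the SoxD genes 1 of 116 (0.862%), against 4.65% of all distal regions. Of the 10, Sox12 gave 4 from its 6 regions, while Sox4 gave 3 of 56 and Sox11 3 of 80. The SoxD region was chr6:144814976-144815125, 33.1 kb upstream of Sox5, with scores of 112 and 91. The second at Sox5, in an intron 725 kb inside the gene (chr6:144056856-144057005), scored 116 and 84, and was below the 90th percentile in replicate 2. The highest at Sox6, chr7:115216916-115217065, was also its farthest, 381 kb from the nearest Sox6 start, with scores of 107 and 77. The highest at Sox13, chr1:133382156-133382325, overlapped the 3′ end of the gene and scored 106 and 80.

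The distal sequences shown hold a SOX core or the CTCF consensus and were chosen for that, so they are no sample of the distal regions. They are the highest distal region of Sox11, the highest and the third of Sox5, and 2 of Sox13, from the same assembly and on the same strand. Capitals mark a SOX core (ACAAAG or ACAATG or AACAAT, on either strand) or the CTCF consensus, the binding sequence of the insulator protein CTCF, which was added after these sequences had been seen.
Sox11 distal (chr12:27082796-27082945): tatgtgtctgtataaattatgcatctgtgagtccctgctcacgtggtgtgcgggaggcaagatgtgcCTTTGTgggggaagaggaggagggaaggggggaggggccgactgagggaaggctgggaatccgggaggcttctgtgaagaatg
Sox5 distal (chr6:144814976-144815125): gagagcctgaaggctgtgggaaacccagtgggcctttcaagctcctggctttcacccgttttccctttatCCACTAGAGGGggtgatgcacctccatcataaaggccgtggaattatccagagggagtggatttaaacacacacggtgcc
Sox5 intron (chr6:144339136-144339285): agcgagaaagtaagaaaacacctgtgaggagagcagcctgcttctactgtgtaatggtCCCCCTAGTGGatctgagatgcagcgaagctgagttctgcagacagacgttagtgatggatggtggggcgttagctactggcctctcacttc
Sox13 distal, downstream (chr1:133380756-133380925): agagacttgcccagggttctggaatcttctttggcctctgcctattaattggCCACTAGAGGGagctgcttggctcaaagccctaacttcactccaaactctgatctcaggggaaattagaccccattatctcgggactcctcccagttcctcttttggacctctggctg
Sox13 distal, upstream (chr1:133492476-133492645): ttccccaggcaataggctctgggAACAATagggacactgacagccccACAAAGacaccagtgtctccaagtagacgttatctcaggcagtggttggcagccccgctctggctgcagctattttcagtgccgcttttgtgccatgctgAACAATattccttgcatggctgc
The Sox11 region held 1 SOX core, the Sox5 regions 1 match to the CTCF consensus each, and the downstream Sox13 region 1 CTCF match. The upstream Sox13 region (scores of 72 and 66 in replicates 1 and 2) held 3 SOX cores within its 170 bp and lies in the widest hotspot of Sox13. Of the 3 highest distal regions of each SoxD gene, 4 of 9 held a CTCF match, and of each SoxC gene 0 of 9, and any SOX core stood in 3 of these 18 regions. The 4 with a CTCF match were at Sox5 and Sox13, and none was at Sox6. Among distal regions at or above the 90th percentile of both lists, 1 of 11 at the 6 genes (9.09%) held a CTCF match, against 18.1% of all such regions. These few regions were picked by score and the motif was seen in some of them first, so the shares are a description only.

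**Figure D4:**
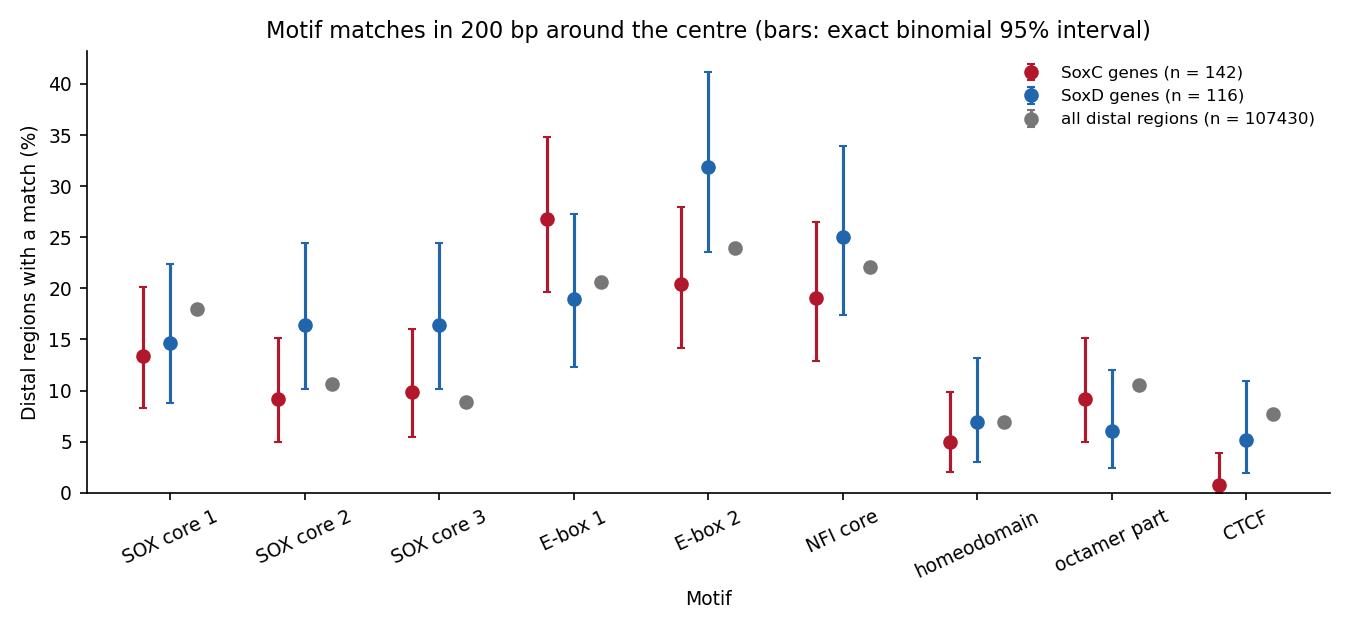
Share of distal regions with a match in the 200 bp around the centre, for the SoxC genes (red), the SoxD genes (blue) and all distal regions (grey), with exact binomial 95% intervals; SOX core 1 is ACAAAG, SOX core 2 is ACAATG and SOX core 3 is AACAAT, while E-box 1 is CAGCTG and E-box 2 is CAGATG. The intervals of the SoxC and SoxD genes overlap for every motif, the SoxD interval of SOX core 3 lies above the share of all distal regions, and the SoxC interval of CTCF lies below it.

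Over all their distal regions the 6 genes did not hold SOX cores more often than other regions did. Any of the 3 cores stood in the 200 bp around the centre of 76 of 258 regions, 29.5% (exact binomial 95% interval 24.0 to 35.4), against 30.9% of all 107430. The core ACAAAG stood in 14.0% of the regions against 18.0% of all, ACAATG in 12.4% against 10.6%, and AACAAT in 12.8% against 8.84%. For AACAAT the interval of 8.97 to 17.5 began just above the share over all regions; it was 16.4% (10.2 to 24.4) at the SoxD genes and 9.86% (5.50 to 16.0) at the SoxC genes. ACAATG and AACAAT can overlap in 1 stretch of DNA and are not independent. Intervals cover counting error only, and 9 motifs were compared.

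The E-box CAGATG, a sequence bound by proneural bHLH factors, stood in 31.9% (23.6 to 41.2) of SoxD regions and 20.4% (14.1 to 28.0) of SoxC regions, against 24.0% of all distal regions. The E-box CAGCTG stood in 19.0% of SoxD and 26.8% of SoxC regions, against 20.6%. For both, the intervals of both families include the share over all regions. The core of the nuclear factor I site, TTGGCA, stood in 21.7% of the 258 regions against 22.1% of all, the homeodomain core TAATTA in 5.81% against 6.89%, and part of the octamer of POU factors, ATGCAA, in 7.75% against 10.6%. The CTCF consensus stood in 7 of 258 regions, 2.71% (1.10 to 5.51), against 7.75% of all distal regions. Of these 7, 1 was at a SoxC gene and 6 at SoxD genes. Those 6 were 4 at Sox5 and 2 at Sox13, while 0 of the 51 regions of Sox6 had a match.

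The replicates agreed at these genes about as well as elsewhere. Of 577 peaks of replicate 1 assigned to the 6 genes 51.6% (exact binomial 95% interval 47.5 to 55.8) overlapped a peak of replicate 2, and of 390 peaks of replicate 2 78.5% (74.0 to 82.4) overlapped a peak of replicate 1. Over all peaks these shares were 51.6% and 82.5%, and the last lies just above the interval of the 6 genes. Per gene, the share of replicate 1 peaks found again was highest at Sox11, 62.5%, and lowest at Sox5, 41.6%, where replicate 1 listed 166 peaks and replicate 2 listed 89. Over the 285 shared regions of the 6 genes, Spearman's rho between the scores of the replicates was 0.873, against 0.913 over all shared regions; regions of 1 library are not independent and no p is given. The score was higher in replicate 1 at 273 of the 285 regions (95.8%), and at 96.2% of all.

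The other 14 Sox genes had fewer distal regions at the median, with a wide range. Their counts ran from 0 to 80 with a median of 7.5, against 6 to 80 and a median of 52.5 for the SoxC and SoxD genes. These counts are not divided by territory, and Sox2 had 51, as many as Sox6. Of the 14 promoters 9 were open in both replicates, near the 66.3% of all genes. The SoxB1 genes of neural progenitors were all open, with scores in replicates 1 and 2 of 132 and 95 at Sox1, 126 and 102 at Sox2, and 79 and 54 at Sox3. Among the SoxE genes of glia and neural crest, Sox9 had 140 and 118 with 80 distal regions, as many as Sox11, and Sox8 had 120 and 81. Sox10, the SoxE factor that SoxD proteins are known to oppose in oligodendrocyte precursors, had a promoter peak of 53 in replicate 1 only.

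Sox21 scored 94 and 81, Sox15 116 and 84, and Sox30 118 and 78. Of the SoxF genes of vessels, Sox17 scored 42 and 33, while Sox7 and Sox18 had a promoter peak in replicate 1 only, of 43 and 57. The same was true of Sox14, with 47. Sry, the testis-determining gene, had none in either replicate.

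**Figure D5:**
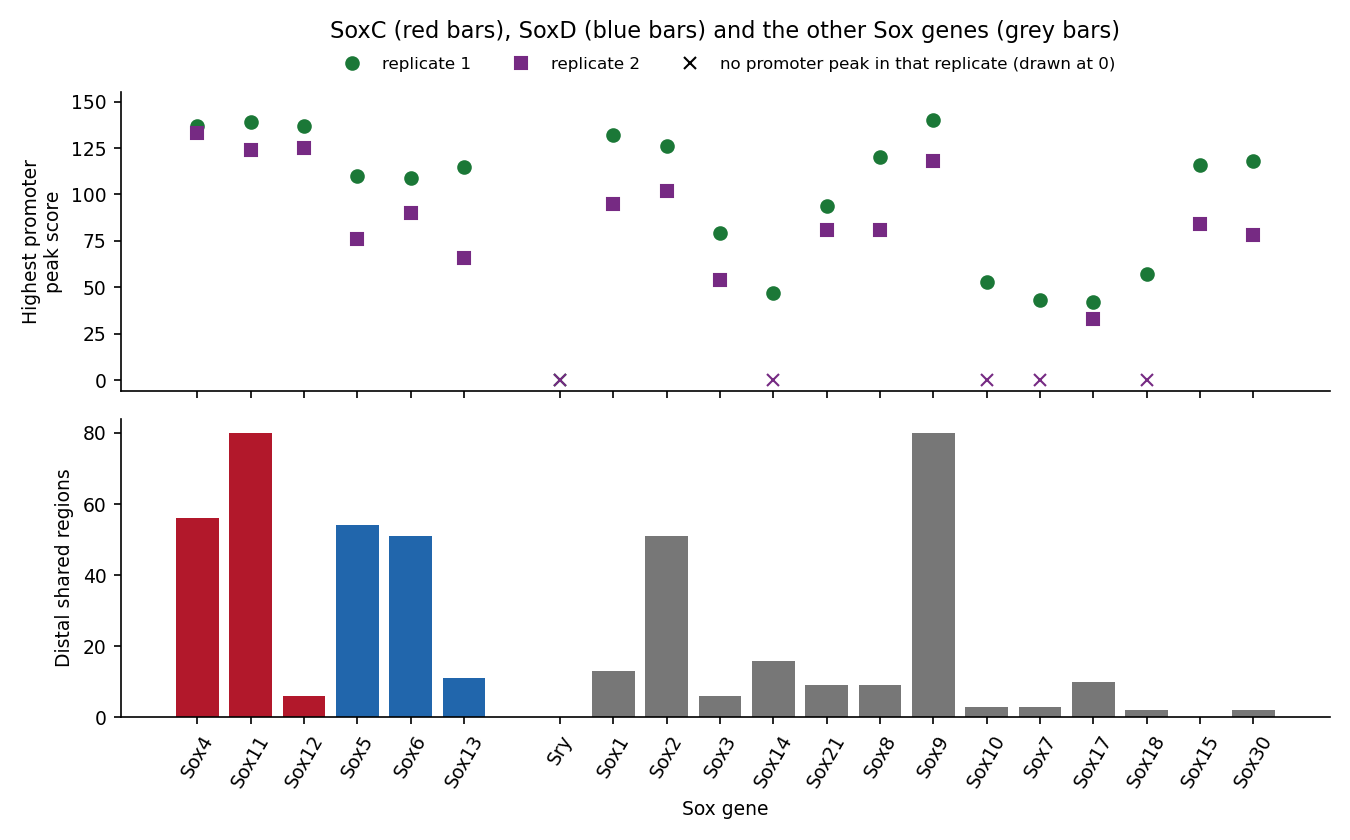
Highest promoter peak score in each replicate (top) and number of distal shared regions (bottom) for the 6 SoxC and SoxD genes, left, and the other 14 Sox genes, right. Sox11 and Sox9 have 80 distal regions each, and Sry, Sox14, Sox10, Sox7 and Sox18 lack a promoter peak in at least 1 replicate.

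Genes known as SoxC targets were open at 6 of 6 promoters. Tubb3, a neuronal tubulin, had best scores of 143 and 123 in replicates 1 and 2, and Dcx, a microtubule protein of migrating neurons, had 84 and 72. Map2, another neuronal microtubule protein, had 143 and 117, Dbn1, an actin-binding protein, 129 and 107, Tead2, a transcription factor of the Hippo pathway, 121 and 94, and Mex3a, an RNA-binding protein, 127 and 113. Dcx was thus the lowest of the 6 in both replicates.

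Of 8 genes known as SoxD targets or partners, 6 had a promoter peak in both replicates. Those of the oligodendrocyte lineage were Mbp, a myelin protein, with 98 and 75, and Pdgfra, the growth factor receptor of its precursors, with 111 and 74. Ctbp2, a corepressor, had 106 and 78. The cartilage matrix genes were lower or closed: Col2a1 had 82 and 55, Acan 57 and 26, and Matn1 none in either replicate. Fezf2, a gene of cortical projection neurons that Sox5 is known to repress in forebrain, also had none. The lists were compared with the same 66.3% of all genes, and hold too few genes to read a difference from it.

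By their percentiles over promoter score, body regions, distal regions and gene length, taken over all 21938 genes, the genes most like Sox4 were Irf2bp2 and Cbln1, and those most like Sox11 were Pou3f2 and Sox9. Sox12 was nearest to Fadd and Srsf6, and Sox13 to Jdp2 and Acsf3. Sox5 was nearest to Kcnma1, which has 40 body and 50 distal regions over 725 kb, and to Nckap5, with 53 and 65 over 917 kb. Sox6 was nearest to Trpm3, with 46 and 50, and Pard3, with 45 and 54. Likeness here is in these 4 measures only.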

How the data were processed

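Per the labels, peaks and hotspots were called by the authors on mm10 for each of 2 DNase-seq libraries, not pooled. The sources used here do not name the caller, its threshold or the aligner. The deposited peak value is a score of unstated meaning (1 to 150), and the deposited hotspot value a −log10 q-value capped at 100, reached by 34.8% and 34.0% of hotspots in replicates 1 and 2. No read counts were used here, so depth and the precision behind a peak are unknown.

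Peaks and hotspots off chromosomes 1 to 19, X and Y were left out, and 31 and 39 exact duplicate peaks were kept. Shared regions came from merging overlapping peaks (1 bp or more) and keeping those with a peak of each replicate. A gene's promoter was open when a peak of each replicate lay within 500 bp of any of its start sites (GENCODE M21). A region was in a gene body by its centre. Percentiles of scores are within the own list. Motifs were searched on both strands. Code was tested on simulated data (Python 3.11.15, pandas 2.3.3, pysam 0.24.0, scipy 1.17.1). The 6 genes, their target lists and markers, and the rule for named genes and regions (all 6 genes, other Sox genes, listed targets, flanking genes, the 2 most alike genes, and up to 3 highest regions of each kind per gene) were chosen with earlier results of these data known; the CTCF consensus and the densest 50 kb were added after the values were seen. No test was made. Alternatives were only peaks at or above the median score, reciprocal overlap, hotspots, equal list lengths, no duplicates, each replicate alone, 1000 bp windows, the 5′ end only, body regions away from start sites, any gene's start, a 100 kb limit, each family alone and other motif windows.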

Additional observations from a re-analysis of the deposited data

How the results depend on the processing

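The count of 6 genes with an open promoter was the same under every alternative run, where the share of all genes ran from 60.7% to 70.8%. The totals over the 6 genes depended more on the processing. With only peaks at or above the median score of their list, body regions numbered 60 and distal regions 127, against 110 and 258. With 1 replicate left out, body regions ranged from 146 to 231 and distal regions from 334 to 527; without replicate 2 the Sox5 body held 123 regions and its distal set 147, against 44 and 54. Distal regions numbered 97 when any annotated gene could claim them, fewer by construction, and 119 within 100 kb. The SoxC genes alone had 16 body and 142 distal regions, and the SoxD genes alone 116 distal regions. The share of replicate 1 peaks found in replicate 2 was 46.4% at a reciprocal overlap of 50% (47.4% over all peaks) and 74.6% with lists of equal length (71.0%); both alternatives were chosen after seeing the data. The share of distal regions with a SOX core was 29.8% over the whole region (27.9% over all) and 30.0% with body regions added. Of 108 single-gene counts, 77 stayed within 1.5 times the reported value and 31 moved beyond it. No paired analysis was possible because there is 1 group. Unknown depth limits all counts: replicate 1 lists more peaks, and whether the sites missing from replicate 2 are closed there was not tested.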
